A study of Mus musculus with 10 samples.

Results

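The inhibitory checkpoint receptors of spleen CD4+ T cells were followed through RNA-seq counts of 10 libraries. The 10 members, Ctla4, Pdcd1, Btla, Cd160, Tigit, Cd96, Lag3, Havcr2, Cd200 and Cd200r1, are co-inhibitory receptor genes or their close partners and were taken by symbol from the 48321 symbols of the count files. All 10 had counts and all 10 were among the 13796 genes that passed the filter on low counts. CD4+ T cells were purified from spleens of C57BL/6 mice on CD25, the IL-2 receptor alpha chain, and on a Gfp reporter of Foxp3 that stands for FoxP3. Mice were young adults of mixed sexes. WT libraries came from FoxP3+CD25+ cells (regulatory T cells, Tregs) and FoxP3-CD25- cells (non-Tregs). KO mice carried floxed Satb1 (Satb1 F/F), ThPOK-cre and the reporter (FoxP3-Gfp), and their libraries covered the same 2 populations and FoxP3+CD25- cells, with 2 libraries in each of the 5 groups. The labels give no floxed or cre allele for WT. Because ThPOK-cre is active in CD4-lineage T cells, Satb1 was targeted in Tregs and non-Tregs alike. Reads counted on genes ranged from 6094952 to 12410064 per library, with a median of 7721649. Values are CPM, counts scaled to TMM library sizes, and a count of 0 allows up to 3 counts, which is 0.242 to 0.492 CPM. Such a limit holds for counting error alone. A joint model of all libraries was tested with edgeR's quasi-likelihood method, a gene was called at a Benjamini-Hochberg FDR under 0.05 over all 13796 genes, and each fold change is given with its standard error (SE). With 2 libraries per group, these p-values measure only the spread between the libraries sequenced, and an RNA level cannot be told apart from the share of cells that hold the RNA.

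T-cell activation needs a signal from the T-cell receptor and costimulation through CD28, and inhibitory receptors oppose these signals through phosphatases bound to their cytoplasmic tails or by taking ligand away from an activating partner. CTLA-4 binds CD80 and CD86 in competition with CD28, PD-1 (Pdcd1) binds PD-L1 and PD-L2 and recruits the phosphatase SHP-2, and BTLA and CD160 bind HVEM. TIGIT and CD96 bind the poliovirus receptor or nectins that the activating receptor CD226 also uses, LAG-3 binds MHC class II, and TIM-3 (Havcr2) binds galectin-9 and other ligands. CD200 is a surface glycoprotein that inhibits cells bearing its receptor CD200R1. Tregs carry CTLA-4 constitutively and use it to remove B7 ligands from antigen-presenting cells, and several of these receptors are also known from activated, follicular helper and exhausted T cells.

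Satb1, the targeted gene, had 818 and 881 CPM in WT FoxP3-CD25- cells and 841 and 682 CPM in KO FoxP3-CD25- cells. In FoxP3+CD25+ cells it had 379 and 478 CPM in WT and 598 and 534 CPM in KO, and the KO FoxP3+CD25- libraries had 1186 and 993 CPM. Satb1 was not called lower in the libraries labelled KO in either population, and counts per gene do not show which exons were transcribed. Foxp3 had 715 and 618 CPM in WT and 739 and 646 CPM in KO FoxP3+CD25+ cells, 361 and 318 CPM in KO FoxP3+CD25- cells and 18.0 to 38.9 CPM in the 4 FoxP3-CD25- libraries. Il2ra, which encodes CD25, had 627 to 760 CPM in the 4 FoxP3+CD25+ libraries and at most 16.8 CPM in the 6 others, so both sort markers followed the gates. Cd4 had 711 to 1145 CPM over all libraries. Markers of other cells were low but not even across the groups. The 8 B-cell genes summed to 26.9 and 35.2 CPM in WT Tregs, 14.4 and 17.6 in WT non-Tregs, 21.1 and 25.8 in KO Tregs, 24.2 and 29.1 in KO non-Tregs and 5.58 and 7.27 in KO FoxP3+CD25- cells, and Cd79b or Cd22 was the most abundant. The 6 NK-cell genes, mostly Eomes, summed to 13.2 and 26.3 CPM in WT and 12.9 and 23.6 CPM in KO non-Tregs, and to 2.41 to 7.47 CPM in the 6 other libraries. Myeloid genes, mostly Csf1r, had 17.7 to 25.6, CD8 T-cell genes 9.38 to 16.6 and erythroid genes 0 to 1.98 CPM per library. Ms4a1, Ncr1, Lyz2 and Itgax, which are among the less abundant genes of their lists, had at most 1.53 CPM in any library. The part of such cells in the receptor values was not tested. The WT replicate 1 libraries stood apart from the others, with 14487 and 16362 Xist counts and 0 counts of 4 chromosome Y genes, whereas Xist had no more than 4 counts in any of the 8 others, where the chromosome Y genes summed to 3039 to 4750.

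Ctla4 (chr1:60887000-60915832, plus strand) and Pdcd1 (chr1:94038305-94052553, minus strand) lie on chromosome 1 of GRCm38 in the GENCODE M21 annotation, Lag3 on chromosome 6 (chr6:124904361-124911705, minus strand), Havcr2 on chromosome 11 (chr11:46454935-46481255, plus strand) and Cd160 on chromosome 3 (chr3:96798763-96829351, minus strand). The other 5 members lie on chromosome 16: Tigit (chr16:43648867-43664146, minus strand), Cd200r1 (chr16:44765736-44794978, plus strand), Btla (chr16:45224315-45257670, plus strand), Cd200 (chr16:45382135-45409053, minus strand) and Cd96 (chr16:46035657-46120251, minus strand). RefSeq promoters (GRCm38.p6) reach from 250 bases before to 50 bases after each start, and 8 of the 10 members matched an entry, all but Lag3 and Cd200r1. Promoters are shown for the 5 members that were higher in WT Tregs than in WT non-Tregs, and for Btla, whose level was nearly the same in every library. They lie at chr1:60908775-60909074 on the plus strand for Ctla4, inside the gene as GENCODE annotates it, at chr1:94052504-94052803 on the minus strand for Pdcd1, at chr16:45224087-45224386 on the plus strand for Btla, at chr16:43664135-43664434 on the minus strand for Tigit, at chr16:46120199-46120498 on the minus strand for Cd96 and at chr16:45409004-45409303 on the minus strand for Cd200. Capitals mark matches on either strand to the forkhead motif TGTTTAC, the NFAT core GGAAA, the Runx core TGTGGT and the AP-1 motif TGACTCA.
Ctla4: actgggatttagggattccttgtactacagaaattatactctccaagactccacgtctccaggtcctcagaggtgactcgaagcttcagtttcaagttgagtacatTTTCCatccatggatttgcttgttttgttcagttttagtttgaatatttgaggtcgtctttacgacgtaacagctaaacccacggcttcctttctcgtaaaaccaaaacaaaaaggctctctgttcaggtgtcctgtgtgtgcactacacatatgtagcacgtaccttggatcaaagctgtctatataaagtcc
Pdcd1: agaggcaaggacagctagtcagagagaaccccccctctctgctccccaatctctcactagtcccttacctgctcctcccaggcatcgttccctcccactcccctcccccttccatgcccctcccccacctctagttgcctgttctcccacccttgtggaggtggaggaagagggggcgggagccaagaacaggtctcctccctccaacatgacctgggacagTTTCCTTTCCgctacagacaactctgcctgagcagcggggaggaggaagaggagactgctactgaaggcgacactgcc
Btla: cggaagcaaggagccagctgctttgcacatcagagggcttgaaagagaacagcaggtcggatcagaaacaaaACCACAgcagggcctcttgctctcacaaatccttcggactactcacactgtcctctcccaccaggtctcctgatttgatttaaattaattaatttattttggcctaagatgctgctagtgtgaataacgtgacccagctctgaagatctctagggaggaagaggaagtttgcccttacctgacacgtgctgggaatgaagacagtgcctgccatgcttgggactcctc
Tigit: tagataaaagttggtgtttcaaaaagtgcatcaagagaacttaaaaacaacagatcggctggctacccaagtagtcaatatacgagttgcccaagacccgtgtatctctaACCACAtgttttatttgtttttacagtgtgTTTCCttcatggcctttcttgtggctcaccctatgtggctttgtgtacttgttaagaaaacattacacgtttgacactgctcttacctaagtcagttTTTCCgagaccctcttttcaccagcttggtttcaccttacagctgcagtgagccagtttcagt
Cd96: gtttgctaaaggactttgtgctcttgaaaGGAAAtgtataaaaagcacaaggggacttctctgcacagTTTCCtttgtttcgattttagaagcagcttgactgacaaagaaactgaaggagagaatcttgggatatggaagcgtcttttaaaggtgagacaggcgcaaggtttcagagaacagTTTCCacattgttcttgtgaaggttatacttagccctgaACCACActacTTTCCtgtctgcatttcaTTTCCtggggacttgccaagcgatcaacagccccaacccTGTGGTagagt
Cd200: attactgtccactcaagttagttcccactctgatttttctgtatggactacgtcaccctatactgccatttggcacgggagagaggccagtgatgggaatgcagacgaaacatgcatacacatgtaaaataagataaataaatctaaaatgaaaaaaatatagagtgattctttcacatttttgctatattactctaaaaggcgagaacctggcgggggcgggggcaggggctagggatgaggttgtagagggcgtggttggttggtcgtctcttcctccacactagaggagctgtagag

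Of all 32851 promoters of the same length, 61.3% hold the NFAT core, 16.8% the Runx core, 5.20% the AP-1 motif and 3.65% the forkhead motif. The Cd96 promoter held 5 NFAT cores and 2 Runx cores, Tigit 2 NFAT cores and 1 Runx core, Pdcd1 2 NFAT cores that lie 23 and 28 bases before the start, Ctla4 1 NFAT core and Btla 1 Runx core, and the Cd200 window held none of the 4 motifs. A match is a run of letters and not a site shown to be bound. Base composition also varied among the members. Bases A and T made up 58.7% of the Tigit promoter, 58.0% of Ctla4, 56.3% of Cd96, 55.0% of Cd200, 51.0% of Btla and 39.3% of Pdcd1, against a median of 47.3% over all promoters.

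Per kilobase of exon, Ctla4 had the highest level of the members in FoxP3+CD25+ cells, with 250 ± 56.8 CPM per kb (SD, n = 2) in WT and 216 ± 71.4 (SD, n = 2) in KO. Cd96 had the highest level in the 3 other groups, with 65.9 ± 4.83 CPM per kb in WT FoxP3-CD25-, 65.2 ± 2.39 in KO FoxP3-CD25- and 65.8 ± 6.82 in KO FoxP3+CD25- cells (SD, n = 2 each). Havcr2 had the lowest level in all 5 groups, at most 0.589 CPM per kb, and Cd160 was next to last in 5 of 5 groups. Tigit held rank 2 in WT FoxP3+CD25+ cells (119 ± 75.4 CPM per kb) and rank 3 in KO (67.3 ± 3.44), but rank 5 in every FoxP3-CD25- or FoxP3+CD25- group. Neighbours in this order were separated by more than the sum of their SDs in 9 of 9 steps in KO FoxP3+CD25+ cells, and in 4 or 5 of 9 steps in the other groups. In WT FoxP3+CD25+ cells the steps from Ctla4 to Tigit and from Tigit to Cd96 were within that spread. Across the 10 libraries the ratio of the highest to the lowest CPM was 1.28 for Btla, 1.89 for Cd200r1, 2.06 for Cd96 and 2.45 for Cd160. It was 4.16 for Cd200, 4.85 for Pdcd1, 14.7 for Ctla4, 19.6 for Tigit and 25.4 for Lag3.

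**Figure D1:**
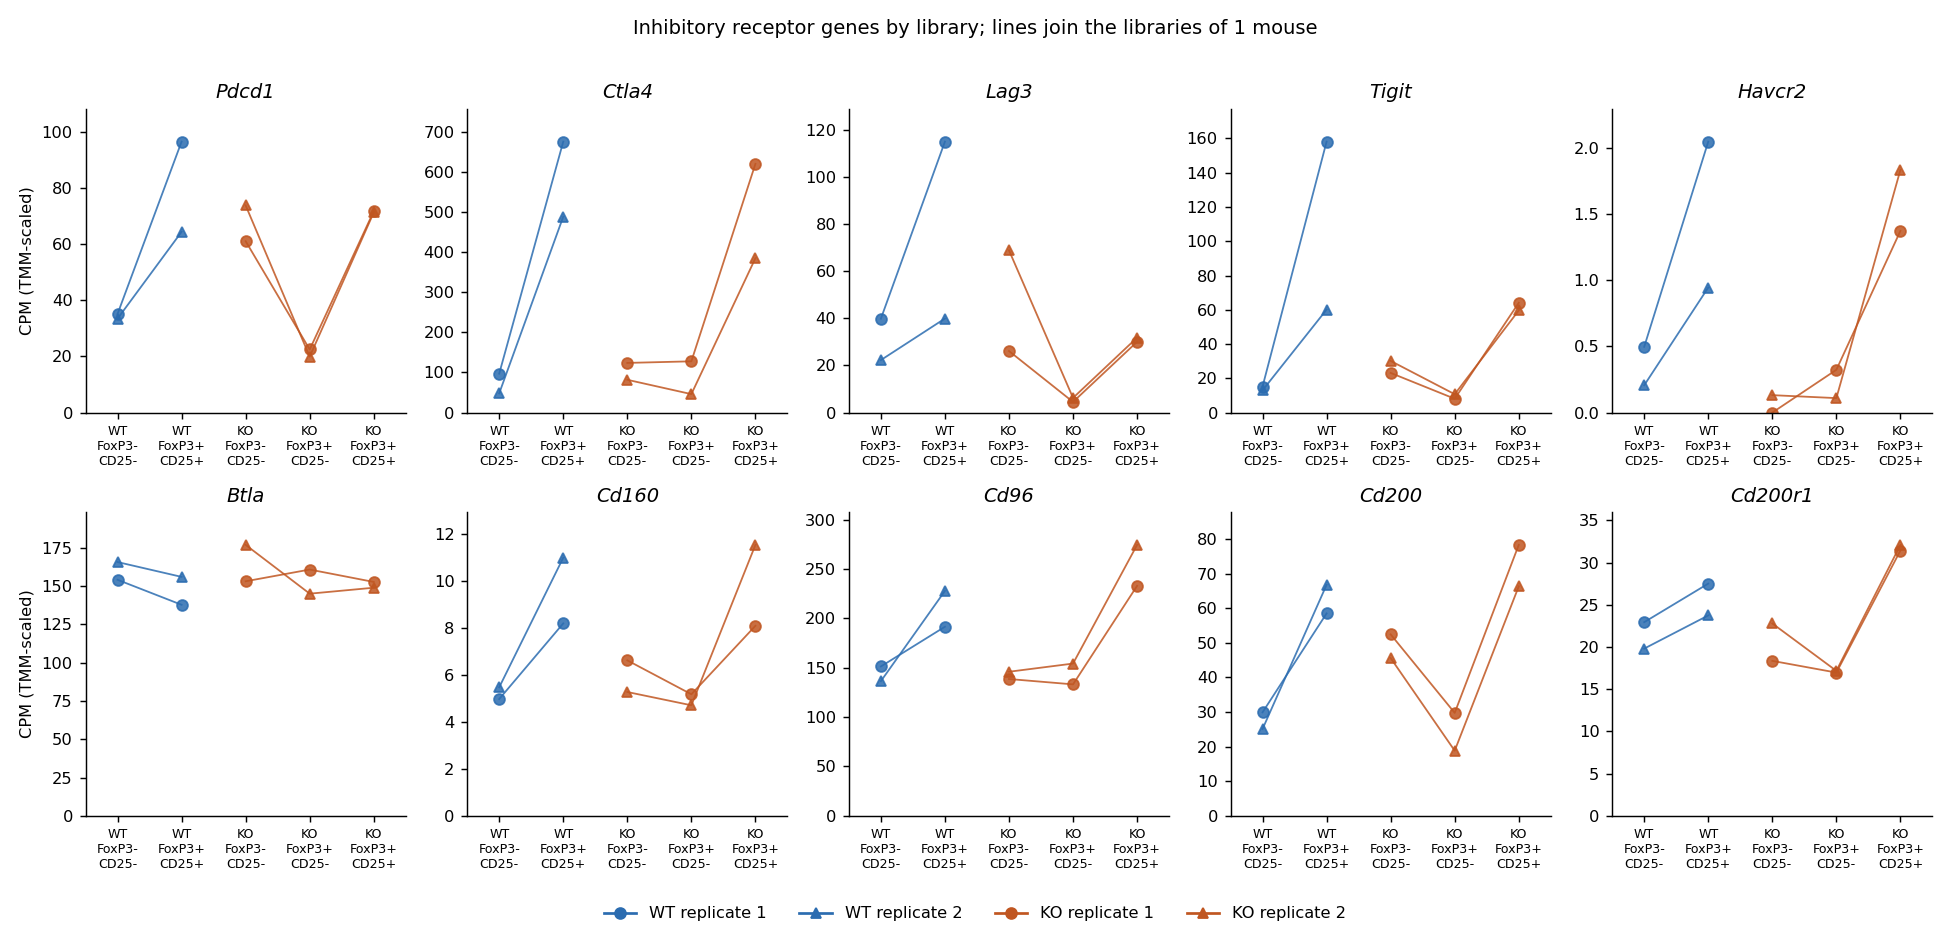
CPM of the 10 members (y axis, from 0) in the 5 sorted groups (x axis), with circles for replicate 1, triangles for replicate 2, WT in blue, KO in orange, and lines that join libraries of the same genotype and number. Pdcd1 and Lag3 have their 2 lowest values in the KO FoxP3+CD25- libraries, Ctla4 stands highest in the 4 FoxP3+CD25+ libraries (385 to 676 CPM), and Btla stays between 138 and 177 CPM.

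The comparison of WT FoxP3+CD25+ with WT FoxP3-CD25- cells asks which of these receptors mark normal Tregs. Ctla4, Tigit, Pdcd1, Cd200 and Cd96 were higher in Tregs, from 7.99-fold for Ctla4 down to 1.46-fold for Cd96, and no member was lower. These 5 of 10 members compare with 10.9% of all genes tested that were called in either direction, 7.15% called higher and 3.75% called lower. The median log2 fold change was 1.21 over the members and -0.02 over all genes tested.

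Among the receptors of the CD28 family, Ctla4 had 676 and 489 CPM in the WT FoxP3+CD25+ libraries and 97.2 and 48.0 CPM in the WT FoxP3-CD25- libraries. Every Treg library was above every non-Treg library, a 7.99-fold difference (SE of the log2 fold change 0.47, edgeR FDR = 0.00181). Pdcd1 had 96.5 and 64.4 CPM in Tregs and 35.1 and 33.4 CPM in non-Tregs. These groups did not overlap either, but the Treg replicates lay further apart than the non-Treg replicates (log2 fold change 1.23, SE 0.18, edgeR FDR = 0.00113). Btla, a receptor of the same fold that binds HVEM, had 138 and 156 CPM in Tregs and 154 and 166 CPM in non-Tregs, and these ranges overlapped (log2 fold change -0.12, SE 0.11, edgeR FDR = 0.611).

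Tigit had 158 and 60.1 CPM in WT Tregs and 15.2 and 13.0 CPM in WT non-Tregs. Both Treg libraries were above both non-Treg libraries, with replicate 1 well above replicate 2 (log2 fold change 2.95, SE 0.37, edgeR FDR = 0.000466). Cd96, the second member that binds the poliovirus receptor, had 192 and 228 CPM in Tregs and 151 and 136 CPM in non-Tregs. Its groups were close but separate (log2 fold change 0.54, SE 0.13, edgeR FDR = 0.0196), and the call was lost without WT FoxP3-CD25- replicate 1 (edgeR FDR = 0.0684), WT FoxP3-CD25- replicate 2 (0.170) or WT FoxP3+CD25+ replicate 2 (0.0676), and with only the libraries compared (0.0533). Cd200 had 58.5 and 66.7 CPM in Tregs and 29.9 and 25.1 CPM in non-Tregs, with replicates nearer to each other than the groups (log2 fold change 1.18, SE 0.19, edgeR FDR = 0.00249), whereas its receptor gene Cd200r1 had 27.5 and 23.7 against 22.9 and 19.8 CPM and was not called (edgeR FDR = 0.401).

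Lag3, the MHC class II receptor, had 115 and 39.9 CPM in WT Tregs and 39.8 and 22.3 CPM in WT non-Tregs. The lower Treg library was level with the higher non-Treg library, and Lag3 was not called (log2 fold change 1.31, SE 0.49, edgeR FDR = 0.136). Havcr2 had 16 and 8 counts in Tregs and 6 and 2 counts in non-Tregs, a ratio of summed depth-scaled counts of 4.01 with a 95% counting interval of 1.74 to 10.3, and was not called (edgeR FDR = 0.0695). Cd160 had 8.19 and 11.0 CPM in Tregs and 4.97 and 5.47 CPM in non-Tregs (edgeR FDR = 0.0571), and its value is uncertain because an exon overlaps Pdzk1 on the opposite strand and the strand setting of the counting is not given in the sources used here. WT libraries of equal number were taken as 1 mouse, and with the mouse as a block 8 members were higher, among 2634 of 13796 genes called: Lag3 (edgeR FDR = 0.00374), Havcr2 (0.0227) and Cd160 (0.0283) were called as well, and each was higher in the Treg library of both mice. Lag3 and Havcr2 also passed without WT FoxP3+CD25+ replicate 2. In all, Lag3 was called in 3 of 12 other settings and Havcr2 in 3 of 11. Without WT FoxP3+CD25+ replicate 1, the Treg value of Lag3 rests on 39.9 CPM, against 39.8 and 22.3 CPM in non-Tregs.

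The same comparison in KO mice asks whether this pattern held when Satb1 was targeted. Ctla4, Cd96, Cd200r1 and Havcr2 were higher in KO FoxP3+CD25+ than in KO FoxP3-CD25- cells and no member was lower, a count of 4 of 10 against 6.34% of all genes called in either direction, 3.52% higher and 2.81% lower. The median log2 fold change over the members was 0.68, against -0.00 over all genes tested. Ctla4 had 620 and 385 CPM in KO Tregs and 124 and 81.8 CPM in KO non-Tregs. The ranges were far apart (log2 fold change 2.29, SE 0.46, edgeR FDR = 0.0133), though the call was lost without KO FoxP3+CD25+ replicate 1 (edgeR FDR = 0.0848) or KO FoxP3-CD25- replicate 2 (0.116). Cd96 had 233 and 274 CPM in KO Tregs and 139 and 146 CPM in KO non-Tregs, with a log2 fold change of 0.83 (SE 0.13, edgeR FDR = 0.00325), and kept its call without any single library. Cd200r1 had 31.4 and 32.1 against 18.4 and 22.8 CPM (log2 fold change 0.62, SE 0.16, edgeR FDR = 0.0497), close to the threshold, and missed it without any single library of the 4 (edgeR FDR of 0.0865 to 0.327), without the filter (0.0780), with DESeq2 (0.113) and with only the libraries compared (0.0697), so that 4 of 11 other settings kept the call. Havcr2 had 9 and 14 counts in KO Tregs and 0 and 1 counts in KO non-Tregs, a ratio of 22.1 with a 95% counting interval of 3.59 to 911, and its call (edgeR FDR = 0.0245) was lost with DESeq2 (FDR = 0.137) and when any single library of the 4 was left out (0.0658 to 0.175).

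Pdcd1, in contrast to its values in WT, had 71.7 and 71.3 CPM in KO Tregs and 61.0 and 73.8 CPM in KO non-Tregs. The Treg values fell inside the range of the non-Treg values (log2 fold change 0.08, SE 0.18, edgeR FDR = 0.913). Tigit had 64.1 and 59.6 CPM in KO Tregs and 23.2 and 30.2 CPM in KO non-Tregs, ranges that did not overlap, with a log2 fold change of 1.21 (SE 0.36) and an edgeR FDR of 0.0861. Lag3 had 30.1 and 31.8 CPM in KO Tregs and 26.1 and 68.9 CPM in KO non-Tregs, where the second non-Treg library alone was high, and Cd200 had 78.3 and 66.3 against 52.4 and 45.6 CPM (log2 fold change 0.56, SE 0.19, edgeR FDR = 0.142). With the mouse as a block 6 members were higher, among 1649 of 13796 genes called, with Tigit (edgeR FDR = 0.00388) and Cd200 (0.0204) added, each higher in the Treg library of both KO mice. Btla had 153 and 149 CPM in KO Tregs and 153 and 177 CPM in KO non-Tregs.

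**Figure D2:**
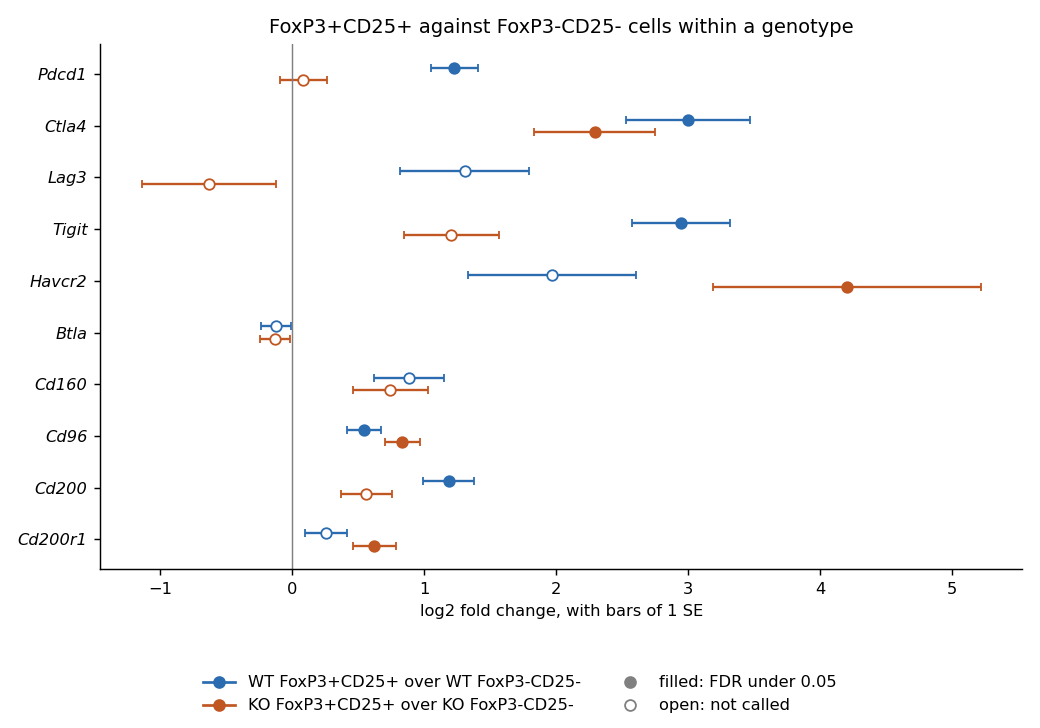
Log2 fold change of FoxP3+CD25+ over FoxP3-CD25- cells (x axis, bars of 1 SE) for each member (y axis) in WT (blue) and KO (orange), filled where the edgeR FDR was under 0.05. Pdcd1 lies at 1.23 in WT and 0.08 in KO, Tigit at 2.95 and 1.21, and the wide bars of Havcr2 rest on 0 to 16 counts per library.

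The difference between these contrasts, which equals the KO effect in FoxP3+CD25+ cells minus the KO effect in FoxP3-CD25- cells, was tested as an interaction in the same model. edgeR's quasi-likelihood test called 0 of 10 members and 0% of all genes tested. At an unadjusted p under 0.05 in that test there were 4 members, Pdcd1, Tigit, Lag3 and Cd200, and 685 of 13796 genes in all. Such a count is close to the share that a threshold of 0.05 passes where nothing differs. DESeq2 called 1 member among 23 genes, and edgeR's likelihood ratio test 1 member among 32 genes. Pdcd1 had an interaction of -1.15 (SE 0.25, edgeR FDR = 0.500), and passed with DESeq2 (FDR = 0.0452) and the likelihood ratio test (FDR = 0.0320). With the mouse as a block, 3 members and 148 genes passed. All 3 members had a lower Treg to non-Treg ratio in KO than in WT: Pdcd1 (-1.13, edgeR FDR = 0.0234), Tigit (-1.64, FDR = 0.0383) and Lag3 (-1.77, FDR = 0.0426). For Lag3 the KO log2 ratio was itself negative in this fit (-0.54, edgeR FDR = 0.237). In KO FoxP3-CD25- cells, Lag3 had 68.9 CPM in replicate 2 and 26.1 CPM in replicate 1.

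Within mice, Pdcd1 was 2.75-fold higher in Tregs than in non-Tregs of WT mouse 1 and 1.93-fold higher in WT mouse 2. The ratio was 1.17-fold in KO mouse 1, and in KO mouse 2 Tregs were lower, with a log2 ratio of -0.05. Tigit was 10.4-fold and 4.62-fold higher in Tregs of WT mice 1 and 2, and 2.77-fold and 1.98-fold higher in Tregs of KO mice 1 and 2. These genes were singled out by their values. Without WT FoxP3+CD25+ replicate 2, which leaves WT Tregs with replicate 1 alone, the unblocked interaction passed for Pdcd1 (-1.42, edgeR FDR = 0.0283) and Tigit (-2.29, FDR = 0.0154), among 121 genes. Without WT FoxP3+CD25+ replicate 1 instead, 0 members and 0 genes passed, and the interaction was -0.83 for Pdcd1 (FDR = 0.790) and -0.89 for Tigit (FDR = 1). Cd96 had an interaction of 0.29 (SE 0.18) and Btla of -0.01 (SE 0.16), and neither passed in the blocked fit (FDR of 0.509 and 0.993).

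In FoxP3-CD25- cells, where the KO effect outside the Treg lineage was compared, 0 of 10 members were called by edgeR's quasi-likelihood test, against 0.145% of all genes tested (0.116% higher and 0.029% lower). At an unadjusted p under 0.05 there were 3 members, Pdcd1, Cd200 and Tigit, among 1106 of 13796 genes. DESeq2 and the likelihood ratio test called 2 members each, Pdcd1 and Cd200, among 103 and 143 genes. Pdcd1 had 61.0 and 73.8 CPM in KO and 35.1 and 33.4 CPM in WT, groups that did not overlap (edgeR FDR = 0.0858, with 0.000956 to 0.441 over the other settings, 5 of 11 of them under 0.05). Cd200 had 52.4 and 45.6 CPM in KO against 29.9 and 25.1 CPM in WT, also without overlap (log2 fold change 0.83, SE 0.20, edgeR FDR = 0.203). Tigit had 23.2 and 30.2 CPM in KO against 15.2 and 13.0 CPM in WT (log2 fold change 0.92, SE 0.38, edgeR FDR = 0.565). Cd96 had 139 and 146 CPM in KO and 151 and 136 CPM in WT and Btla 153 and 177 against 154 and 166 CPM, with log2 fold changes of -0.02 (SE 0.13) and 0.05 (SE 0.11). Lag3 had 26.1 and 68.9 CPM in KO and 39.8 and 22.3 CPM in WT, and its log2 fold change turned from 0.62 to -0.26 without KO FoxP3-CD25- replicate 2.

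In FoxP3+CD25+ cells, 0 of 10 members were called between KO and WT by edgeR's quasi-likelihood test, against 0.00725% of all genes tested. Lag3 and Tigit were among 592 of 13796 genes with an unadjusted p under 0.05, no more than such a threshold passes where nothing differs. DESeq2 and the likelihood ratio test called 0 members each, among 5 and 11 genes. Lag3 had 30.1 and 31.8 CPM in KO and 115 and 39.9 CPM in WT, and Tigit 64.1 and 59.6 against 158 and 60.1 CPM. In both genes WT replicate 1 alone was high, and WT replicate 2 was close to the KO libraries. This WT replicate 1 library also had the highest CPM of all 10 libraries for Pdcd1, Ctla4 and Havcr2. Without it, the log2 fold change of Tigit moved from -0.82 to 0.04, that of Pdcd1 from -0.17 to 0.15 and that of Ctla4 from -0.21 to 0.04. Without WT FoxP3+CD25+ replicate 2, Tigit was lower in KO (log2 fold change -1.36, edgeR FDR = 0.0475). The same WT library was high in some other genes: Cd44 had 212 CPM against 112 to 137 CPM in the 3 other FoxP3+CD25+ libraries, Maf 420 against 189 to 256, Prdm1 59.4 against 19.5 to 25.6, and Icos 281 against 165 to 190. It was lowest of these libraries in Cd69 (302 against 338 to 474 CPM) and in the summed activation and memory genes (2295 against 2485 to 2875 CPM). The part of such genes in the receptor values was not tested. WT replicate 1 differed from all other libraries in its Xist and chromosome Y counts, so its sex cannot be told apart from other features of that mouse.

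**Figure D3:**
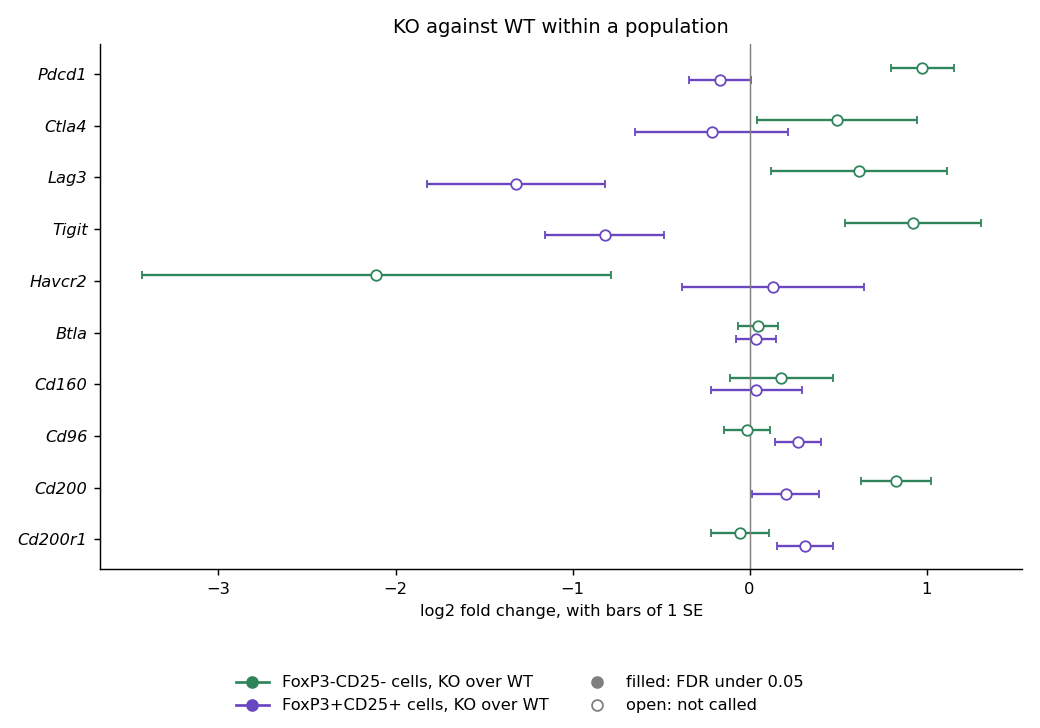
Log2 fold change of KO over WT (x axis, bars of 1 SE) for each member (y axis) in FoxP3-CD25- cells (green) and FoxP3+CD25+ cells (purple), open where the edgeR FDR was 0.05 or more. No point is filled, and Pdcd1 lies at 0.98 in non-Tregs and -0.17 in Tregs.

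FoxP3+CD25- cells of KO mice hold Foxp3 RNA, at less than the KO Treg level, and little Il2ra RNA. Their receptor levels were compared with those of the other populations. These populations also differed in Cd44 and in several follicular helper markers, described below, so the comparisons do not isolate FoxP3. Against KO FoxP3-CD25- cells, Pdcd1, Lag3 and Cd200 were lower and no member was higher, a count of 3 of 10 against 1.67% of all genes called in either direction and 1.35% called lower. Pdcd1 had 22.5 and 19.9 CPM in KO FoxP3+CD25- cells and 61.0 and 73.8 CPM in KO FoxP3-CD25- cells. The former are the lowest of all 10 libraries (log2 fold change -1.68, SE 0.19, edgeR FDR = 0.00187), and the call was kept in all 11 other settings. Lag3 had 4.53 and 6.24 CPM against 26.1 and 68.9 CPM, again with the lowest values of all libraries (log2 fold change -3.12, SE 0.61, edgeR FDR = 0.0325). Its call was lost without KO FoxP3+CD25- replicate 1 (edgeR FDR = 0.200), KO FoxP3+CD25- replicate 2 (0.224) or KO FoxP3-CD25- replicate 2 (0.226). Cd200 had 29.7 and 18.8 CPM against 52.4 and 45.6 CPM (log2 fold change -1.03, SE 0.20, edgeR FDR = 0.0336), and lost its call without KO FoxP3+CD25- replicate 2 (0.282) or either KO FoxP3-CD25- library (0.160 and 0.114), and with only the libraries compared (0.0738).

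Tigit had 8.08 and 10.7 CPM in KO FoxP3+CD25- cells, below the 23.2 and 30.2 CPM of KO FoxP3-CD25- cells, with an edgeR FDR of 0.129 (log2 fold change -1.49, SE 0.41). With the mouse as a block it was called as well (edgeR FDR = 0.00798), which made 4 members among 786 of 13796 genes called. Ctla4 had 128 and 46.1 CPM against 124 and 81.8 CPM, overlapping ranges in which the sign depended on the library (log2 fold change -0.25, and 0.32 without KO FoxP3+CD25- replicate 2). Cd96 (133 and 154 CPM) and Btla (161 and 145 CPM) were within the range of the FoxP3-CD25- libraries or near it, with log2 fold changes of 0.02 (SE 0.13) and -0.11 (SE 0.11).

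KO FoxP3+CD25+ cells share the FoxP3+ gate but not CD25, and both Foxp3 and Il2ra were called lower in KO FoxP3+CD25- cells. The comparison of these groups therefore did not hold FoxP3 equal. Against KO FoxP3+CD25+ cells, 8 of 10 members were lower in KO FoxP3+CD25- cells, all but Btla and Cd160. This compares with 7.01% of all genes called in either direction, 4.76% lower and 2.25% higher. Log2 fold changes of the 8 ranged from -0.82 for Cd96 to -2.95 for Havcr2, whose value rests on 2 and 1 counts against 9 and 14. Ctla4 was 5.84-fold lower (log2 fold change -2.54, SE 0.47, edgeR FDR = 0.00690) and Tigit 6.48-fold lower (-2.69, SE 0.40, FDR = 0.00218). Pdcd1, Ctla4, Tigit, Cd200 and Cd96 kept the call in all 11 other settings. Lag3 and Havcr2 lost it without any single library of the 4 (edgeR FDR of 0.104 to 0.178 and of 0.103 to 0.353), Havcr2 also with DESeq2 (FDR = 0.235), and Cd200r1 without 3 of them, KO FoxP3+CD25- replicate 1 (0.0526), KO FoxP3+CD25+ replicate 2 (0.0531) and KO FoxP3+CD25- replicate 2 (0.0662). Cd160 was added with the mouse as a block (edgeR FDR = 0.0266), which made 9 members among 2090 of 13796 genes called.

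Against WT FoxP3-CD25- cells, 0 of 10 members were called by edgeR's quasi-likelihood test, against 0.768% of all genes tested. Pdcd1 and Lag3 were among 1214 of 13796 genes with an unadjusted p under 0.05. Lag3 had 4.53 and 6.24 CPM against 39.8 and 22.3 CPM, a log2 fold change of -2.51 (SE 0.61, edgeR FDR = 0.132), and was called by DESeq2 (FDR = 0.0305) and the likelihood ratio test (FDR = 0.000592), the only member among the 204 and 306 genes they called. Pdcd1 had 22.5 and 19.9 CPM against 35.1 and 33.4 CPM, lower in each pair of libraries. Cd200 had 29.7 and 18.8 against 29.9 and 25.1 CPM and Tigit 8.08 and 10.7 against 15.2 and 13.0 CPM. No WT FoxP3+CD25- group was sequenced, so population and genotype cannot be told apart here.

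**Figure D4:**
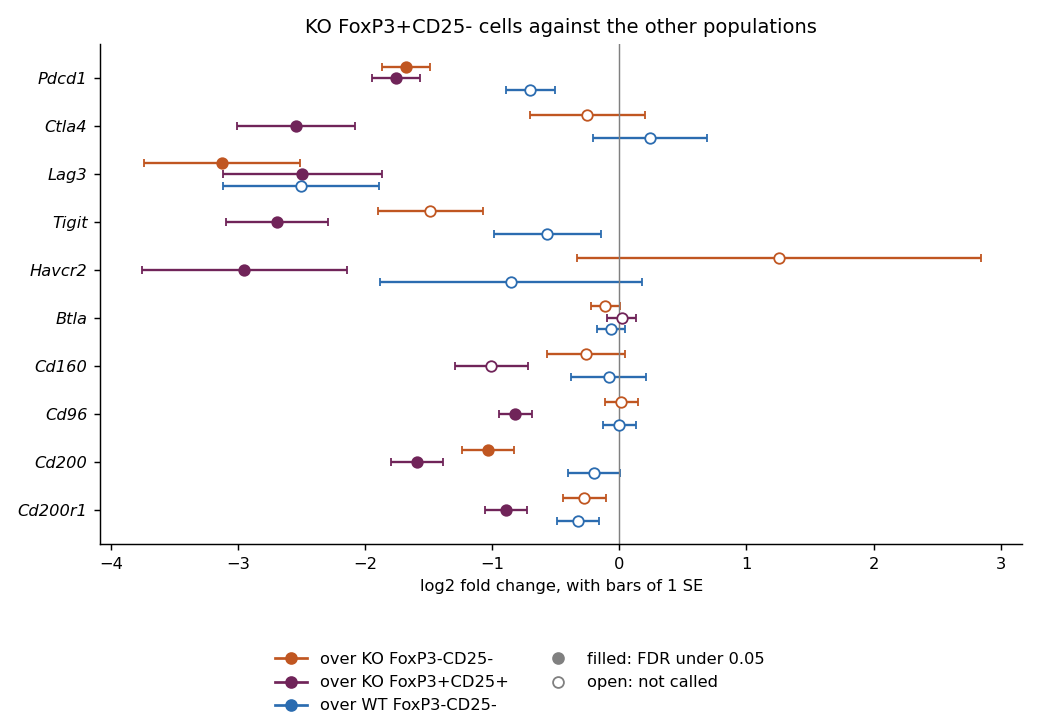
Log2 fold change of KO FoxP3+CD25- cells (x axis, bars of 1 SE) over KO FoxP3-CD25- (orange), KO FoxP3+CD25+ (purple) and WT FoxP3-CD25- cells (blue) for each member (y axis), filled where the edgeR FDR was under 0.05. Pdcd1, Lag3 and Cd200 are filled and negative against both KO groups, and no point against WT FoxP3-CD25- cells is filled.

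Ligands were followed in the same libraries, since T cells can carry them too. Of 15 ligand genes 10 passed the filter, and 3 were higher in Tregs than in non-Tregs of each genotype: Cd274 (PD-L1), Pdcd1lg2 (PD-L2) and Cd86, against 7.15% of all genes called higher in WT and 3.52% in KO. Cd274 had 141 and 114 CPM in WT Tregs and 74.0 and 67.1 CPM in WT non-Tregs (log2 fold change 0.85, SE 0.14, edgeR FDR = 0.00305). Pdcd1lg2 had 12.5 and 13.7 against 1.99 and 1.86 CPM (2.76, SE 0.34, FDR = 0.000446), and Cd86 22.1 and 33.9 against 4.56 and 6.91 CPM (2.31, SE 0.32, FDR = 0.000918). In KO FoxP3+CD25- cells Pdcd1lg2, Cd86 and Cd80 were lower than in KO Tregs (4.76% of all genes were), whereas Cd274 had 81.0 and 104 CPM against 110 and 125 CPM. Cd80 rests on few counts, with 0 and 0.219 CPM in KO FoxP3+CD25- cells, at the counting limit, against 2.14 and 1.97 CPM in KO Tregs. The ligand genes Lgals9 (galectin-9, 98.3 to 156 CPM) and Pvr (the poliovirus receptor, 42.7 to 65.0 CPM) were not called in any of the 8 comparisons.

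Of the 4 activating partners Cd28, Icos, Cd226 and Crtam, Icos alone was called. It had 281 and 167 CPM in WT Tregs, 121 and 92.0 CPM in WT non-Tregs, 190 and 165 CPM in KO Tregs, 141 and 162 CPM in KO non-Tregs, and 72.1 and 57.3 CPM in KO FoxP3+CD25- cells, the lowest values of the 10 libraries. Icos was higher in WT Tregs (log2 fold change 1.07, SE 0.22, edgeR FDR = 0.0103, where 7.15% of all genes were higher). In KO FoxP3+CD25- cells it was lower than in KO FoxP3-CD25- cells (-1.23, SE 0.23, FDR = 0.0274, with 1.35% of all genes lower) and than in KO Tregs (-1.46, SE 0.23, FDR = 0.00330, with 4.76% lower). Cd28, the receptor that CTLA-4 competes with, had 334 to 508 CPM and was not called. Of 17 signalling genes downstream of these receptors, all tested, Sh2d1a (the adaptor SAP) and Rasa1 were higher in WT Tregs, against 7.15% of all genes. Ptpn11, which encodes the SHP-2 phosphatase that PD-1 recruits, had 285 and 320 CPM in KO non-Tregs, 163 and 153 CPM in KO Tregs, 150 and 149 CPM in KO FoxP3+CD25- cells, and 159 to 243 CPM in the 4 WT libraries, so that the KO non-Treg libraries were the highest. It was lower than in KO non-Tregs in KO FoxP3+CD25- cells (log2 fold change -1.02, SE 0.16, edgeR FDR = 0.00955), the only signalling gene called there, and in KO Tregs (-0.94, SE 0.16, FDR = 0.00500), where Sh2d1a was higher. Of all genes 1.35% and 2.81% were lower in these comparisons. Sh2d1a was also lower in KO FoxP3+CD25- cells than in KO Tregs, as were 4.76% of all genes.

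Of 13 other inhibitory receptor genes 8 were tested, and 3 were higher and 1 lower in WT Tregs, against 7.15% and 3.75% of all genes. Klrg1, a receptor for cadherins, was higher in WT Tregs (7.81 and 12.2 CPM against 0.497 and 0 CPM, edgeR FDR = 0.000422), as were Cd101 (46.6 and 42.3 against 15.7 and 15.5 CPM, FDR = 0.000721) and Lilrb4a (21.4 and 7.21 against 1.08 and 0.206 CPM, FDR = 0.00135). Lair1, a collagen receptor, was lower (2.56 and 4.02 against 13.6 and 10.2 CPM, FDR = 0.00161). Cd22, better known from B cells, had 20.5 and 17.4 CPM in KO FoxP3-CD25- cells and 1.13 and 1.75 CPM in KO FoxP3+CD25- cells (log2 fold change -3.65, SE 0.36, edgeR FDR = 0.000832). KO Tregs were also below KO FoxP3-CD25- cells, with 5.95 and 4.45 CPM. Cd22 is also among the B-cell marker genes above, and the part of B cells in its values was not tested. Vsir, which encodes VISTA, had 306 to 404 CPM and Cd5 390 to 559 CPM, and neither was called in any comparison.

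Lists of follicular helper and of activation genes, chosen with earlier results of these data known, were followed in the same KO populations. Of 9 follicular helper markers 6 were lower in KO FoxP3+CD25- than in KO FoxP3-CD25- cells and none was higher: Il21, Cxcr5, Pou2af1, Tox2, Ascl2 and Icos, against 1.35% of all genes called lower. The summed level of all 9 markers was 390 and 441 CPM in KO FoxP3-CD25- cells, 251 and 308 CPM in WT FoxP3-CD25- cells and 158 and 187 CPM in KO FoxP3+CD25- cells, with Icos the most abundant of the list in every library. In KO Tregs 4 of the 9 were lower than in KO non-Tregs and 1 was higher, against 2.81% and 3.52% of all genes. Of 10 activation and memory genes 2 were lower in KO FoxP3+CD25- than in KO FoxP3-CD25- cells, Cd44 and Cxcr3, and none was higher (1.35% and 0.319% of all genes), with a median log2 fold change of 0.11 over the list. Cd44, a marker of antigen-experienced cells, had 148 and 157 CPM in KO FoxP3-CD25- cells and 17.9 and 16.1 CPM in KO FoxP3+CD25- cells, below the 80.1 to 212 CPM of the 8 other libraries (log2 fold change -3.17, SE 0.22, edgeR FDR = 0.000160). The part of cells of these states in the receptor values was not tested.

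Of 20 transcription factor genes linked to checkpoint receptors, Tbx21, Tox2, Maf and Eomes were lower and Foxp3 was higher in KO FoxP3+CD25- than in KO FoxP3-CD25- cells, against 1.35% and 0.319% of all genes. Maf had 88.1 and 65.8 CPM against 227 and 248 CPM (log2 fold change -1.63, SE 0.31, edgeR FDR = 0.0280), and Tox2 5.82 and 4.92 against 43.8 and 36.1 CPM (-2.90, SE 0.39, FDR = 0.00449). In WT Tregs, 8 of the 20 were higher than in WT non-Tregs, Foxp3, Ikzf2, Tox, Nfil3, Maf, Prdm1, Tox2 and Irf4, and 3 were lower, Tcf7, Satb1 and Eomes, against 7.15% and 3.75% of all genes. In KO Tregs 2 were higher than in KO non-Tregs, Foxp3 and Ikzf2, and 2 were lower, Tcf7 and Tbx21, against 3.52% and 2.81% of all genes. Ikzf2, which encodes Helios, had 1235 and 939 CPM in WT and 944 and 848 CPM in KO Tregs, but 103 and 74.2 CPM in KO FoxP3+CD25- cells. Maf had 420 and 207 CPM in WT and 256 and 189 CPM in KO Tregs, and 138 and 92.0 CPM in WT and 227 and 248 CPM in KO non-Tregs, where the groups did not overlap, and edgeR called 0 of the 20 genes in the interaction.

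**Figure D5:**
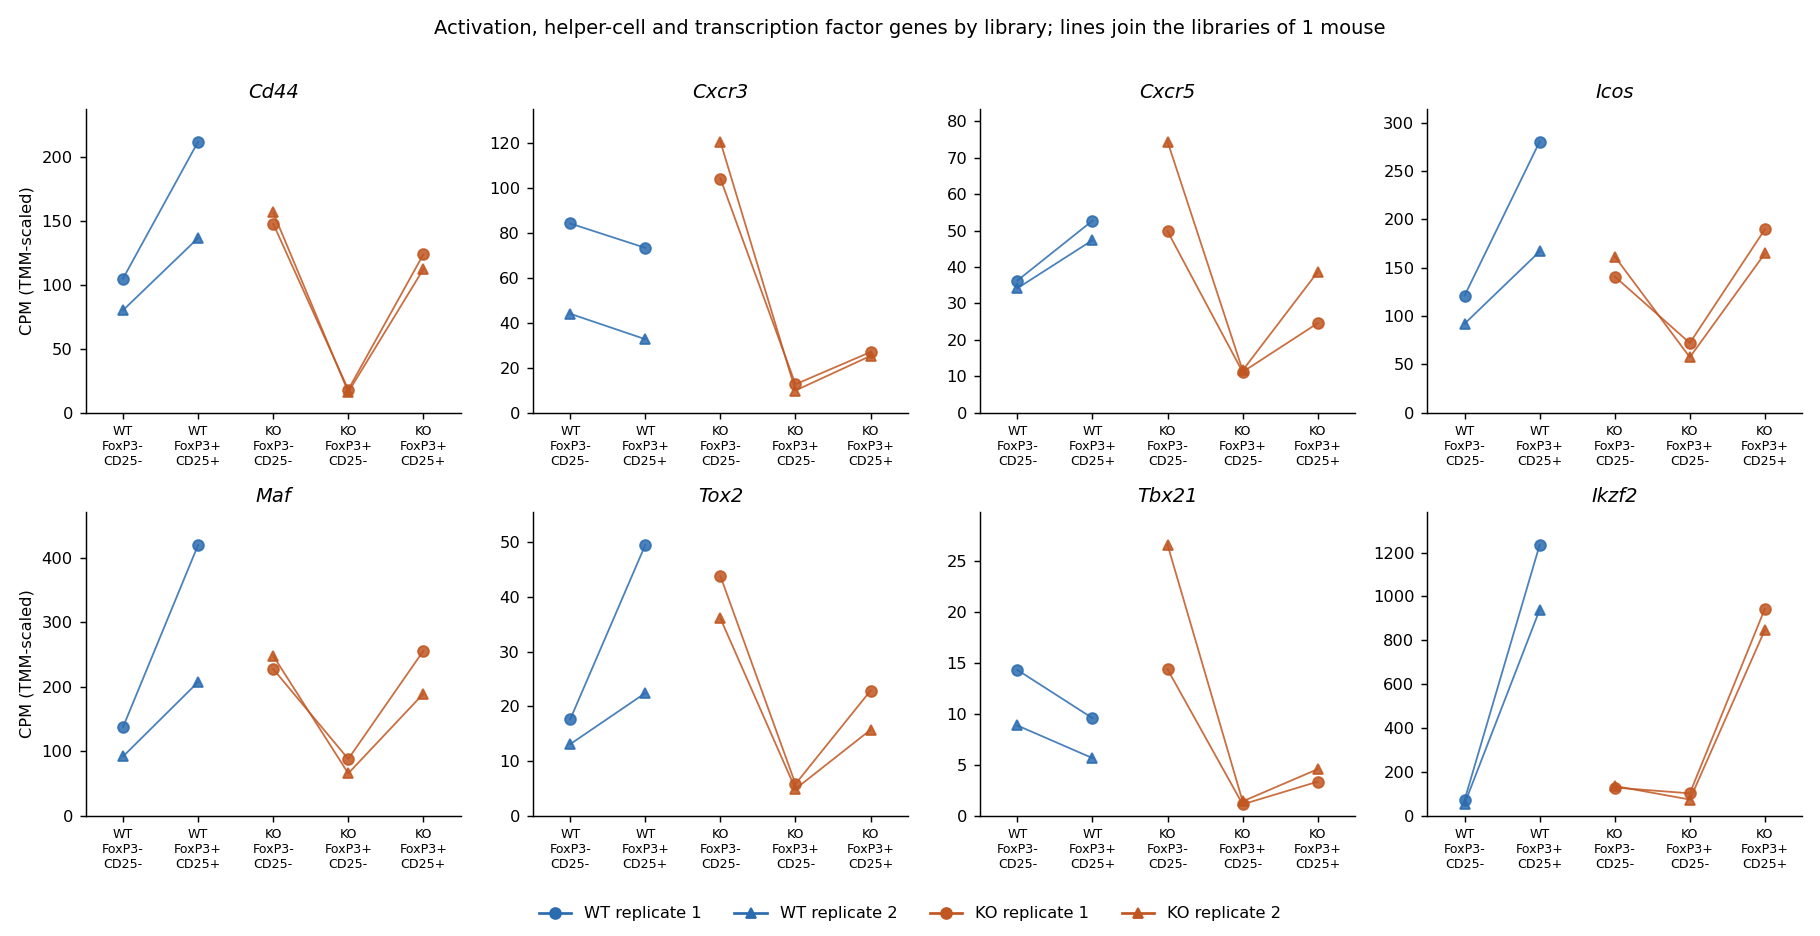
CPM (y axis, from 0) of 8 listed genes that were called in at least 1 comparison, picked for display after their values were seen, in the 5 groups (x axis), with circles for replicate 1, triangles for replicate 2, WT in blue, KO in orange, and lines that join libraries of the same genotype and number. Cd44, Cxcr3, Cxcr5, Tox2 and Tbx21 are at their lowest in the KO FoxP3+CD25- libraries, and Ikzf2 separates the 4 FoxP3+CD25+ libraries (848 to 1235 CPM) from the others.

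On chromosome 16, Tigit, Cd200r1, Btla, Cd200 and Cd96 lie within 2471385 bases (chr16:43648867-46120251) that hold 56 annotated genes. Btla and Cd200 are the closest, 124464 bases apart, and Tigit and Cd200r1 the furthest neighbours, 1101589 bases apart. Of these members 3 were higher in WT Tregs than in WT non-Tregs, and of the 21 other genes tested in the interval 1 was higher and 4 were lower, against 7.15% and 3.75% of all genes (Boc, Cd200r3, Gm26732, Sidt1 and Spice1). Between KO FoxP3+CD25- and KO FoxP3+CD25+ cells 4 of these members were lower, whereas of the 21 other genes 2 were higher, Cd200r3 and Spice1, and none was lower, against 4.76% of all genes lower and 2.25% higher. Compared with KO FoxP3-CD25- cells, 1 member (Cd200) and 2 other genes (Gm26732 and Sidt1) were lower in KO FoxP3+CD25- cells, against 1.35% of all genes. Compared with WT FoxP3-CD25- cells, 0 members and the same 2 other genes were lower, against 0.413% of all genes. Btla, in the middle of the interval, was not called in any comparison.

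The genes most like each member were found as the smallest root mean square difference in centred log2 CPM over the 10 libraries, as a description without a test. Pdcd1 was nearest to Gm9754 (0.15) and Crmp1 (0.18), Tigit to Gm28513 (0.17) and the prostaglandin receptor gene Ptger2 (0.26), and Ctla4 to Specc1 (0.35) and Tmem158 (0.38). Lag3 was nearest to Rnf43 (0.37) and Shtn1 (0.37), Cd200 to Cdca7 (0.20) and Syne3 (0.20), and Cd96 to Il10rb (0.10) and Ctss (0.12). Cd200r1 was nearest to Ctsz (0.14) and Rnf11 (0.16), and Havcr2, at few counts, to Gm20412 (0.26) and Pgpep1l (0.36). Among the members, Cd200r1 and Cd96 were the most alike (0.18), and Pdcd1 was nearest to Cd200 (0.33), while Ctla4 and Btla differed most (1.47).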

How the data were processed

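RNA of 10 sorted spleen CD4+ T-cell samples was sequenced by the study, and the deposited files hold counts per gene symbol, which the authors made by alignment to GRCm38 with HISAT2 2.1.0 and counting with HTSeq (0.11.1 in the processing notes, an earlier release in the paper's methods). The strand setting and the annotation release are not given in the sources used here. Each of the 5 groups had 2 libraries with 6094952 to 12410064 counts on genes. Of 48321 symbols 28262 had a count, and 13796 passed the filter on low counts (filterByExpr, minimum 10). The model held 1 mean per group with TMM scaling in edgeR 4.0.16 (limma 3.58.1, R 4.3.3), with 5 residual degrees of freedom and a common biological coefficient of variation of 0.147. Two-sided quasi-likelihood tests were made for 8 comparisons, adjusted by Benjamini-Hochberg over all 13796 genes, with an FDR threshold of 0.05. The test was tried on simulated data. Alternatives were no filter, RLE factors, DESeq2 1.42.0, the likelihood ratio test, only the libraries compared, blocks by replicate number or by mouse, and each library left out. Tables and figures used Python 3.11.15, numpy 2.4.6, pandas 2.3.3, scipy 1.17.1 and matplotlib 3.10.9.

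Within a genotype, equal library numbers were taken to mean 1 mouse, as the titles imply without saying so: across 13796 genes the differences between replicates correlated at 0.303 between the WT populations and at 0.421 to 0.445 among the KO populations, against -0.0114 to 0.114 between genotypes. The members and the gene lists were chosen with earlier results of these data known. From each list, genes called in at least 1 comparison were to be named, at most the 8 of lowest p. Further transcription factors, and Cd28, Lgals9, Pvr, Vsir, Cd5 and the other markers that were not called, are named by choice after their values were seen.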

Additional observations from a re-analysis of the deposited data

Results flagged for a closer look

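With the mouse as a block, 3 members, among 148 genes, differed between KO and WT mice in their Treg to non-Treg ratio. The test was edgeR's quasi-likelihood test, and the block left fewer residual degrees of freedom than the 5 of the main model. Only the WT replicate 1 libraries had high Xist counts and no chromosome Y counts. The sex of WT mouse 1 thus cannot be told apart from its other features in the WT ratios. The log2 ratio of FoxP3+CD25+ to FoxP3-CD25- cells was lower in KO than in WT by an interaction of -1.13 for Pdcd1 (edgeR FDR = 0.0234), -1.64 for Tigit (FDR = 0.0383) and -1.77 for Lag3 (FDR = 0.0426), so a difference between groups brought them here. Of the 15 settings other than the main fit, 4 called Pdcd1, 2 called Tigit and 1, the block by mouse, called Lag3. The FDR ranged from 0.0234 to 1 for Pdcd1, 0.0154 to 1 for Tigit and 0.0426 to 1 for Lag3 over the other settings. Within mice the log2 ratios of Pdcd1 were 1.46 and 0.95 in WT and 0.23 and -0.05 in KO, those of Tigit 3.38 and 2.21 in WT and 1.47 and 0.98 in KO, and those of Lag3 1.53 and 0.84 in WT and 0.20 and -1.11 in KO. In edgeR's quasi-likelihood test of all libraries without the block, the FDR was 0.500 for Pdcd1, 0.717 for Tigit and 0.868 for Lag3. Other unblocked settings did pass: DESeq2 (FDR = 0.0452) and the likelihood ratio test (0.0320) for Pdcd1, and the fit without WT FoxP3+CD25+ replicate 2 for Pdcd1 (0.0283) and Tigit (0.0154). Without WT FoxP3+CD25+ replicate 1, 0 genes passed.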

How the results depend on the processing

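Pdcd1, Ctla4, Tigit and Cd200 kept their calls between WT FoxP3+CD25+ (Treg) and FoxP3-CD25- (non-Treg) cells in all 12 other settings, and Pdcd1 kept its call between KO FoxP3+CD25- and KO FoxP3-CD25- cells in all 11. RLE factors moved no count beyond 1.5 times. Without the filter, counts of all genes called rose from 1 to 5 (KO against WT Tregs), 20 to 91 (KO against WT non-Tregs, members 0 to 1), 230 to 411 (KO FoxP3+CD25- against KO non-Tregs), 106 to 238 (KO FoxP3+CD25- against WT non-Tregs, members 0 to 1) and 0 to 7 (interaction). DESeq2 gave 5, 103 (members 2), 353, 204 (members 1) and 23 (members 1) in the same order, and 2 members instead of 4 between KO Tregs and KO non-Tregs. The likelihood ratio test gave 11, 143 (members 2), 514, 306 (members 1) and 32 (members 1). With only the libraries compared, counts were 0 for KO against WT Tregs and 66 (members 1) for KO against WT non-Tregs, and 1 member was called between KO FoxP3+CD25- cells and WT non-Tregs. The block by number gave 4, 108 (members 1), 403, 217 and 10. The block by mouse gave 2634 (members 8) between WT Tregs and non-Tregs, 1649 between KO Tregs and non-Tregs, 786 and 2090 for KO FoxP3+CD25- cells against KO non-Tregs and KO Tregs, and 148 (members 3) for the interaction. The cause was not tested.

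With each library left out, which assumes that the lone library of a group varies like the other groups, all genes called ranged from 828 to 2185 (members 4 to 6) between WT Tregs and non-Tregs, 396 to 441 (1 to 2) between KO Tregs and non-Tregs, 1 to 7 (0 to 1) for KO against WT Tregs and 0 to 4 (0 to 0) for KO against WT non-Tregs. They ranged from 30 to 169 (1 to 2), 410 to 562 (5 to 6) and 25 to 57 (0 to 0) for KO FoxP3+CD25- cells against KO non-Tregs, KO Tregs and WT non-Tregs, and from 0 to 121 (0 to 2) for the interaction. Without both WT replicate 1 libraries, 715 genes were called between WT Tregs and non-Tregs, 3 between KO and WT Tregs, 14 between KO and WT non-Tregs and 42 between KO FoxP3+CD25- cells and WT non-Tregs. Signs reversed only in values that were not called. Between KO and WT Tregs, log2 fold changes with a library left out ranged from -0.44 to 0.15 for Pdcd1, -0.59 to 0.092 for Ctla4 (highest without KO FoxP3+CD25+ replicate 2, and 0.041 without WT FoxP3+CD25+ replicate 1) and -1.36 to 0.041 for Tigit, and without both WT replicate 1 libraries they were 0.15, 0.041 and 0.042. Between KO Tregs and non-Tregs they ranged from -0.046 to 0.23 for Pdcd1 and -1.15 to 0.24 for Lag3, and for Lag3 from -0.26 to 1.15 between KO and WT non-Tregs. For KO FoxP3+CD25- cells they ranged from -1.16 to 0.32 for Ctla4 against KO non-Tregs, where 0.073 was the value without KO FoxP3-CD25- replicate 1. Against WT non-Tregs they ranged from -0.65 to 0.84 for Ctla4 (-0.16 without WT FoxP3-CD25- replicate 2) and -0.54 to 0.12 for Cd200. Depth limits Havcr2, with 0 to 16 counts per library.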
